A study of Drosophila melanogaster with 2 samples.

Results

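Far intergenic peaks of vvl-eGFP are the peaks whose summit lay in no gene body and more than 5000 bp from any annotated transcript start. There were 388 such peaks among the 8309 peaks of the conservative list of the series, or 4.67%. They were chosen by position alone, from the authors' summit positions in dm6 and the gene models of Ensembl release 115 without transposable elements. The data are chromatin immunoprecipitation followed by sequencing (ChIP-seq), which maps where a protein sits on DNA, in 1 group of 2 biological replicates. Each replicate was a collection of whole Drosophila melanogaster embryos aged 0 to 24 h of the strain vvl-GFP, which carries a fusion of ventral veins lacking (vvl) to eGFP, and an antibody against GFP was used for the precipitation. The labels do not say which sequences drive the fusion, or whether it stands beside the native gene as an extra copy or replaces it. A possible control experiment named in the labels was not used here. Because whole embryos of all these ages were mixed, a weak peak in every cell and a strong peak in few cells cannot be told apart.

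vvl encodes a POU-domain transcription factor, a protein that holds DNA with a POU-specific domain and a linked homeodomain and is known for binding an octamer that joins a binding site of each. In the embryo it is known for its part in tracheal cell fate and branch migration, in the midline glia and in neurons. In flies, developmental genes often stand beside long gene-free stretches, and enhancers in such stretches can act on a start many kilobases away, so the nearest gene of a distal peak is a label of position and not a target.

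The windows of 201 bases around the summits of high-signal far intergenic peaks are shown first, since most of them held none of the 3 POU words searched. The words were the octamer ATGCAAAT and the related words ATGCTAAT and ATGCATAT, which are printed in capitals wherever they occur on either strand; all other bases are in lower case. Sequences are the plus strand of the Release 6 assembly from RefSeq, 5′ to 3′, with the summit at the middle base. The first 5 windows belong to the peaks with the second to sixth highest signal of the 388, since the window of the highest is not printed here, and none of them had a base in capitals.
3L:6853729-6853929 (+), nearest coding start Prat2: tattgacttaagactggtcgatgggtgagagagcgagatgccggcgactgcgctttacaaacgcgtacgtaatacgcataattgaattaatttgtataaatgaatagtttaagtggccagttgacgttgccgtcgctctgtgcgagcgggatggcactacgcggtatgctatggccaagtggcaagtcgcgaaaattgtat
3L:21484015-21484215 (+), nearest coding start Neu2: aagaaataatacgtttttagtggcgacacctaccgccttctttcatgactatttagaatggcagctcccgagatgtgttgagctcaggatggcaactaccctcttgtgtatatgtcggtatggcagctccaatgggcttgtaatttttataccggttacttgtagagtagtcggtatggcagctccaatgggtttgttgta
2L:1632733-1632933 (+), nearest coding start chinmo: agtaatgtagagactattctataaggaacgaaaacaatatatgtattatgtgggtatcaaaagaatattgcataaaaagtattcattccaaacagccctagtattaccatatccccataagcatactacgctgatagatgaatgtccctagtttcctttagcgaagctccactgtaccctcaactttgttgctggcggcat
3L:781236-781436 (+), nearest coding start CG13898: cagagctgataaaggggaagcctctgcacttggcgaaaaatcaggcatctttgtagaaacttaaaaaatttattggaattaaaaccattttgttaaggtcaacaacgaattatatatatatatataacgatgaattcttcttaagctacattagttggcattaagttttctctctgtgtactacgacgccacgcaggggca
3L:11416860-11417060 (+), nearest coding start CG7560: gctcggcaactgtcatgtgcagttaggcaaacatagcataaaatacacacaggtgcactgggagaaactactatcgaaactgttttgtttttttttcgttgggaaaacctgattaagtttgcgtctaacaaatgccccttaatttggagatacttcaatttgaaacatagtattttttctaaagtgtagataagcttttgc
The window beside vvl and Prat2 held a GAGA word, gagagag. The window next to Neu2 held a stretch of 23 bases that occurred 2 times within the window, a local repeat.

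The next 5 windows belong to the highest-signal far intergenic peaks with the octamer within 100 bp of the summit, and show where in the window the octamer stood.
2L:7284896-7285096 (+), nearest coding start Wnt4: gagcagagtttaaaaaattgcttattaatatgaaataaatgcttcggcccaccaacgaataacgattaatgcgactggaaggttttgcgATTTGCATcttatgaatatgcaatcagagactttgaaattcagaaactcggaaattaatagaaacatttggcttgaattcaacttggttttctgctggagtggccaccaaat
X:3355266-3355466 (+), nearest coding start Myc: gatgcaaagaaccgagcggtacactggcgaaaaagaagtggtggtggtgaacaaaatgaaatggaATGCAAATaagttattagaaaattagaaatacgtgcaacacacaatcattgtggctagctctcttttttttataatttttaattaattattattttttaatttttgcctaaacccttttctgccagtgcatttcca
3L:409939-410139 (+), nearest coding start trh: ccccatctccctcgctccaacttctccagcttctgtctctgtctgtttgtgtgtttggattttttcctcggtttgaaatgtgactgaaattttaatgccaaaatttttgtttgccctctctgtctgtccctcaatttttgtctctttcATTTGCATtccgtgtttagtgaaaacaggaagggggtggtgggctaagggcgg
3L:9027189-9027389 (+), nearest coding start Doc2: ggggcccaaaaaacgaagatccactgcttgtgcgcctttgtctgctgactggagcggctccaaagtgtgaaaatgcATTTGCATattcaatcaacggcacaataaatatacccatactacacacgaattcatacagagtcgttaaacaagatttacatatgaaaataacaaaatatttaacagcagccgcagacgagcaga
3L:3387727-3387927 (+), nearest coding start Ids: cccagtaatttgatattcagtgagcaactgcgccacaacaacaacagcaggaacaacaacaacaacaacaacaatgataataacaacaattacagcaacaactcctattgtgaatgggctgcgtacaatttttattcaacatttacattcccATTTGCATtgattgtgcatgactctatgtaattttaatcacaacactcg
In the window nearest to Wnt4 the octamer was on the minus strand and ended 4 bases before the summit base, and in that nearest to Doc2 it ended 17 bases before it. None of these 5 windows held more than 1 occurrence of the POU words. Of the 388 windows, 5 held 2 or more, a share that was not computed over all peaks.

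Signal at far intergenic peaks was close to that of the list. Signal is the value the authors gave each peak, and ranks run from the highest signal of the 8309 peaks. The median signal of the 388 was 138.3 (quartiles 104.5 and 203.7, range 2.539 to 2196), beside 141.3 in all peaks. In all, 187 of the 388 (48.2%, 95% Wilson interval 43.3 to 53.2) were above the list's median, beside 50.4% of 854 intergenic peaks more than 500 and up to 5000 bp from a start and 43.9% of 1077 deep intronic peaks, which lie in introns more than 5000 bp from a start. Neither difference passed: it was -2.16 points (-8.15 to 3.84; Fisher's exact test, adjusted p = 0.644) against the near intergenic peaks and 4.28 points (-1.51 to 10.1; exact test, adjusted p = 0.460) against the deep intronic ones. In the broader list, with 607 far intergenic peaks, the first difference was -7.60 points and passed (exact test, adjusted p = 0.0111), and the second was -0.684 (exact test, adjusted p = 0.811). These intervals and p-values count peaks, which are not replicates. Of the 388, 1 was among the first 100 peaks of the list (0.258%, beside 1.20% of all peaks) and 17 among the first 500 (4.38%, beside 6.02%). Among the first 1000 were 34 (8.76%), where 12.04% of all peaks, 10.8% of near intergenic and 7.15% of deep intronic ones were. Their widths ran from 99 to 649 bp, and 265 of the 388 had a width of exactly 396 bp, which was also the median width of all peaks. The 13 members with a signal under 50 all overlapped another peak of the same list. Across the 388, 43 (11.1%) overlapped another listed peak, a share that was not computed over all peaks. The same start and end with different summits was found for 2 (0.5155%), where 24 of all 8309 peaks (0.289%) shared their start and end. Neighbouring windows can therefore share bases.

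The strongest far intergenic peak lay at 2R:13035167-13035506, between Su(z)2, a relative of the Polycomb group gene Psc, and CG13323. Its signal was 2196, rank 14 of the list, with 1202 in replicate 1 and 991.7 in replicate 2. Its summit was 11914 bp from the nearest start and its window held none of the 18 words searched. The signal of the next peak was less than that of 141 peaks of the list. That peak, at 3L:6853657-6854092 in the stretch free of coding genes between vvl and Prat2, an enzyme gene of purine synthesis, had a signal of 871.9 (504.9 and 411.3 in replicates 1 and 2). Both of these peaks were high in each replicate.

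The other high peaks were spread over several arms. The peak at 3L:21483971-21484278, between croc, a forkhead factor, and Neu2, had a signal of 793.2 (503.1 and 298.3). That at 2L:1632692-1632965, 18425 bp from the nearest coding start, chinmo, a BTB zinc finger factor, had 751.9 (298.9 and 454.9) and was one of those higher in replicate 2. Peaks at 3L:781196-781484 (723.0), beyond a tRNA gene between hng3 and CG13898, and at 3L:11416844-11417149 (649.6), 8198 bp from CG7560, followed. The peak at 3R:5066506-5067022 between plh and corto, a chromatin factor gene, had 636.1, with 448.9 and 189.9 in the replicates. Of the 15 highest, the remaining 8 had as nearest coding genes vvl with 2, CG13896, CG4702, CG7320, 18w, Wnt4 and CG5103. All 15 overlapped a peak in the list of each replicate, and 2 of them held a POU word, the one near Wnt4 the octamer and one near vvl ATGCATAT.

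Replicate 1 gave the higher signal at most far intergenic peaks. A summit within 100 bp was found for 369 of the 388 in the ranked list of replicate 1 and for 355 in that of replicate 2, and 346 had both. Over these 346 the median was 90.0 in replicate 1 and 54.2 in replicate 2, and the rank correlation of the signals was 0.610, beside 0.627 over 6951 other peaks. These correlations describe peaks that share the 2 libraries and were kept for being found in both. In the thresholded lists of the single replicates, 226 of the 388 (58.2%) overlapped a peak in both, where 62.4% of all conservative peaks did. Another 97 overlapped only the list of replicate 1, 25 only that of replicate 2 and 40 neither. The share in both was 61.5% in near intergenic peaks, a difference of -3.23 points (-9.12 to 2.67; exact test, adjusted p = 0.644), and 56.5% in deep intronic peaks, a difference of 1.70 points (-4.03 to 7.43; exact test, adjusted p = 0.664). Support followed signal within the members: 163 of the 187 above the list median were in both lists, and 63 of the 201 at or below it.

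**Figure D1:**
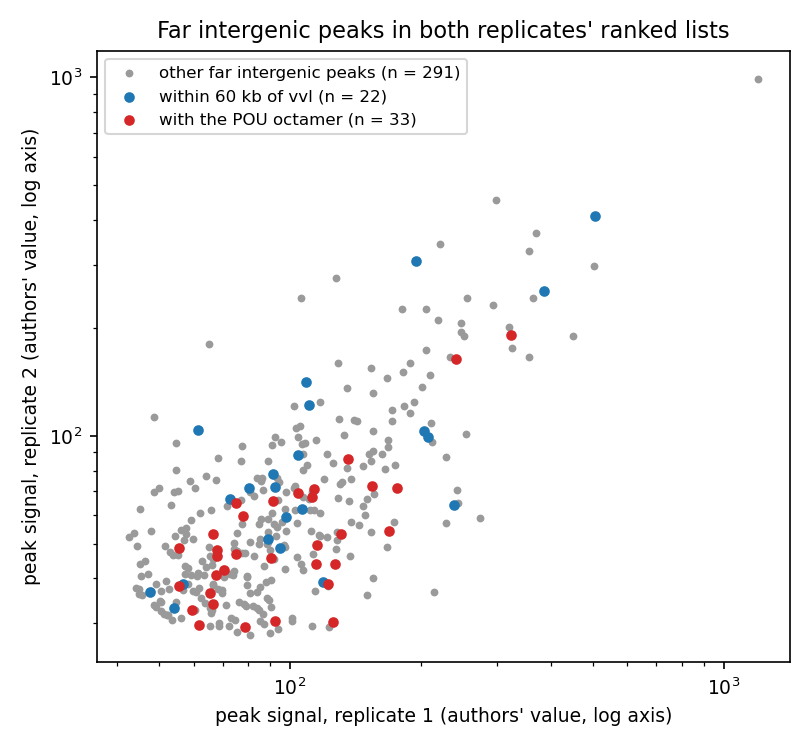
Signal of the 346 far intergenic peaks that had a summit in each ranked list, replicate 1 on the horizontal and replicate 2 on the vertical axis, both log axes. Red points are the 33 with the octamer, blue points the 22 others within 60 kb of vvl and grey points the remaining 291; the peak at the upper right is the one between Su(z)2 and CG13323, and all 33 red points are higher in replicate 1.

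Gene-free sequence far from any start carried peaks at a lower density than the like classes. The 388 summits lay in 19.9 Mb, which is 19.5 per Mb (95% exact Poisson interval 17.6 to 21.5). Near intergenic sequence held 52.2 per Mb (48.7 to 55.8), deep intronic sequence 38.1 (35.9 to 40.5) and all sequence 62.2. Soft-masked repeats took up 31.7% of the far intergenic bases, 20.7% of the near intergenic and 25.9% of the deep intronic ones. Counted per unmasked Mb, the densities were 28.6, 65.8 and 51.4. How far reads could be placed in these repeats was not tested. No far intergenic summit lay in an annotated transposable element (0 of 388, which allows up to 0.980%, Wilson). Over all peaks 11 of 8309 (0.132%) did, among them 4 of 854 near intergenic and 2 of 1077 deep intronic ones.

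Density of far intergenic peaks was uneven between arms. Arm 3L held 163 of the 388 (42.0%) at 29.8 per Mb of far intergenic sequence (25.4 to 34.8), and 2L held 81 at 25.99 (20.6 to 32.3). These intervals overlap. Lower were 3R with 59 at 15.7 (11.9 to 20.2), X with 32 at 11.2 (7.66 to 15.8) and 2R with 51 at 11.1 (8.30 to 14.7), and chromosome 4 had 2. Without the 60 kb on either side of vvl, 3L held 134 at 24.9 per Mb (20.8 to 29.4), still above the interval of 2R, X and 3R. Near intergenic peaks were also densest on 3L, at 72.95 per Mb (64.3 to 82.5), beside 53.4 on 2L, 47.1 on 2R, 45.2 on 3R and 38.1 on X. Deep intronic peaks were not, with 34.5 per Mb on 3L, 47.4 on 2L, 36.1 on 2R, 33.7 on 3R and 44.7 on X. The share of soft-masked bases in far intergenic sequence was 31.7% on 3L, 28.5% on 2L, 35.6% on 2R, 30.9% on 3R and 30.3% on X. The part of repeats or of any library in the difference between arms was not tested. A further 184 peaks of the ranked list that passed its threshold, 115 of them on 3R, were not analysed here, and 0 of the 184 met the rule for far intergenic peaks.

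**Figure D2:**
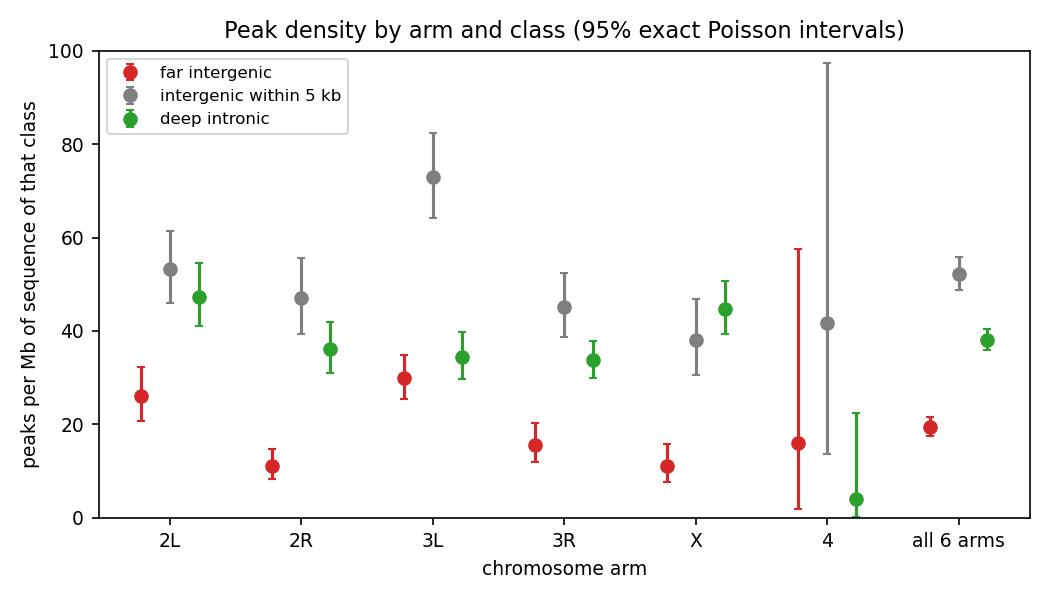
Peaks per Mb of sequence of the same class, by chromosome arm, for far intergenic peaks (red), intergenic peaks within 5 kb of a start (grey) and deep intronic peaks (green), with 95% exact Poisson intervals as bars. Far intergenic density is highest on 3L (29.8) and 2L (25.99) and near 11 on 2R and X; chromosome 4 holds 2 far intergenic peaks and its interval is wide.

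Far intergenic peaks were spread over many intervals between protein-coding genes, with a few that held many. They lay in 182 such intervals, of which 96 held 1 peak, 50 held 3 or more and 10 held 5 or more. Noncoding genes can lie inside these intervals. The 5 fullest intervals held 58 of the 388 (14.9%), 52 of them on 3L. The fullest, 117.1 kb between vvl and Prat2 (3L:6794942-6911998), held 25 with ranks from 142 to 8154, of which 18 were in both replicate lists and 1 had the octamer. All but 1 of the 25 summits stood in the left part, within 60 kb of the vvl gene, and 14 of them in a run of 21.2 kb. The second, between NijA and CG43245, held 12 within 28.1 kb of a stretch of 75.05 kb. The third, between hng3 and CG13898, held 8, led by the peak of signal 723.0. The next held 7 within 4.25 kb, between CG44362 and CG7560, with signals of 649.6, 499.5, 445.1, 301.9, 169.2, 16.16 and 5.112. The 2 lowest of these overlapped higher ones. The last of the 5, 29.99 kb between the Wnt ligand genes Wnt4 and wg on 2L, held 6, of which 3 had the octamer and 1 other ATGCTAAT.

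**Figure D3:**
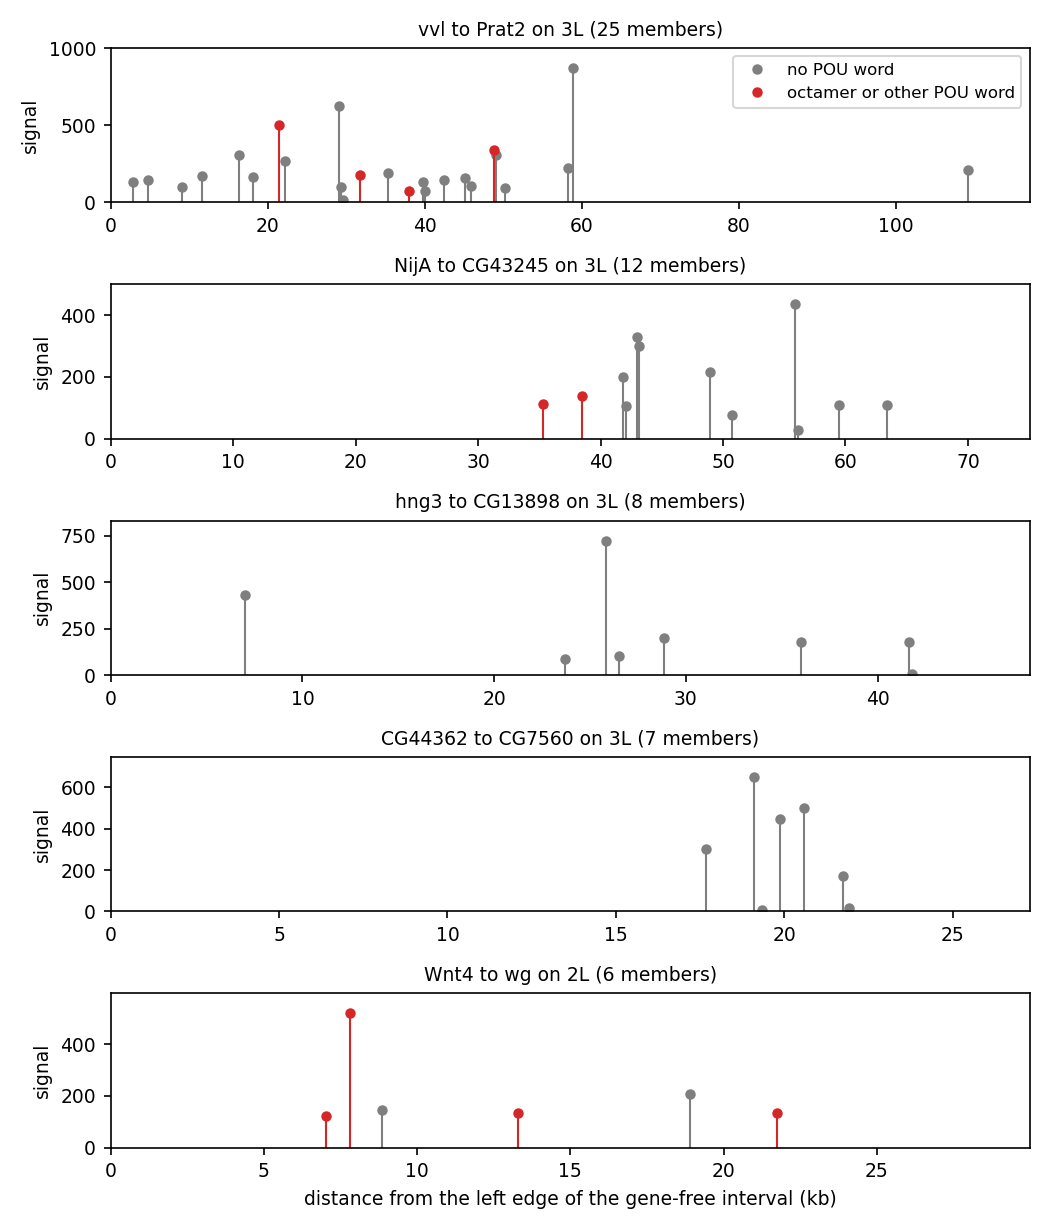
Signal of each far intergenic peak against the distance of its summit from the left edge of its interval between protein-coding genes in kb, for the 5 intervals with most members. The axis label calls these intervals gene-free, but noncoding genes can lie in them. Red stems hold the octamer or another POU word within 100 bp, grey stems none; between Wnt4 and wg 4 of 6 stems are red, and between CG44362 and CG7560 none of 7.

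The peaks between Wnt4 and wg show how signal and words were combined. The highest, at 2L:7284859-7285128 with the octamer printed above, had a signal of 518.0 (323.4 and 190.8 in replicates 1 and 2). The other 2 with the octamer had 133.6 (90.65 and 45.66) and 120.9 (92.26 and 30.37). Both overlapped a peak of the replicate 1 list and none of the replicate 2 list. The peak with ATGCTAAT, 8231 bp from wg, had 132.4 (77.51 and 47.18). The remaining 2, without a POU word, had 205.6 and 146.8, so that the words did not sort the 6 by signal.

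Beside vvl itself, 29 of the 388 lay within 60 kb of the gene, of 44 peaks of the whole list there. Their median signal was 156.7, and 22 of the 29 were in both replicate lists, beside 204 of the 359 others. Of the 29, 2 held the octamer (6.90%), beside 9.47% of the 359 others and 6.68% of all peaks. Any POU word was held by 5 (17.2%), beside 16.4% of the 359 others and 11.3% of all peaks. The 3 highest with vvl as the nearest coding gene had signals of 626.9 (384.4 and 253.9), 501.5 (195.7 and 308.2) and 339.1, which was 251.1 in replicate 1 with no summit within 100 bp in replicate 2. A second member with the same start and end as this last one had 305.1, with 239.3 and 64.2 in replicates 1 and 2. Any added copy of vvl would map to this locus, and an added copy and binding at the native gene cannot be told apart.

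Summits with another summit close by were less common than in the like classes, by a margin that did not pass. Of the 388, 244 (62.9%) had another summit of the list within 5 kb, where 71.8% of all conservative summits did. By the rule, a summit right at a transcript start cannot lie within 5 kb of a far intergenic summit. Part of the gap to all peaks and to near intergenic ones can thus be set by the rule, and how much was not tested. Deep intronic summits are under the same limit of 5000 bp. The share was 69.9% in near intergenic peaks, a difference of -7.02 points (-12.7 to -1.31; exact test, p = 0.0154, adjusted p = 0.139), and 68.8% in deep intronic ones, a difference of -5.92 (-11.5 to -0.369; exact test, adjusted p = 0.168). Without peaks within 60 kb of vvl both differences passed, at -9.89 points (exact test, adjusted p = 0.00932) and -8.91 points (exact test, adjusted p = 0.0107). The list of replicate 2 alone also gave a passing difference from near intergenic peaks, -14.5 points (exact test, adjusted p = 1.87e-04), and that of replicate 1 alone gave -1.32 (exact test, adjusted p = 0.755). The median distance to the next summit was 2757 bp, beside 2211 bp in all peaks.

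The octamer was found at far intergenic summits more often than around them. It stood within 100 bp of 36 of the 388 summits (9.28%, 6.78 to 12.6) and in 30 of 723 windows of the same size centred 1000 bp to each side and free of peaks (4.15%), giving an odds ratio of 2.36 with an interval of 1.43 to 3.90 (adjusted p = 0.00603 in Fisher's exact test). In all conservative peaks, 6.68% held it. ATGCTAAT was at 17 summits (4.38%) and in 8 flanking windows (1.11%), an odds ratio of 4.10 (1.75 to 9.58; exact test, adjusted p = 0.00603). ATGCATAT was at 14 (3.61%) and in 12 (1.66%), and did not pass (2.22, 1.02 to 4.84; exact test, adjusted p = 0.223). Any of the 3 was at 64 summits (16.5%), where 11.3% of all conservative peaks held one, and in 49 flanking windows (6.78%; odds ratio 2.72, 1.83 to 4.03; exact test, adjusted p = 1.34e-05). Most far intergenic summits thus held no POU word in this window.

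The octamer's odds ratio changed with the replicate and the distance limit, as did the call of the POU words as a set. With the 303 far intergenic peaks of replicate 2 alone the odds ratio was 1.13 (0.638 to 2.00; exact test, adjusted p = 0.902), and with the 490 of replicate 1 alone it was 4.05 (2.61 to 6.29; exact test, adjusted p = 1.30e-09). For the 163 peaks more than 10000 bp from a start it was 1.00 (0.436 to 2.30; exact test, adjusted p = 1), with 9 summits and 17 of 308 flanking windows. For any of the 3 POU words the call was lost in the same settings. With replicate 2 alone their ratio was 1.41 (exact test, adjusted p = 0.456), while replicate 1 alone gave 3.94 (exact test, adjusted p = 1.53e-13). Beyond 10000 bp it was 2.25 (1.202 to 4.195, exact test, adjusted p = 0.117), on fewer windows, beside 2.72 for all 388. ATGCTAAT, in contrast, passed beyond 10000 bp, at 10 of these 163 summits and in 0 of the 308 windows (exact test, adjusted p = 3.89e-04). ATGCTAAT did not pass with replicate 2 alone or among peaks above the median signal, where 0 of the single fixed words passed. Any of the 3 POU words as a set still passed among peaks above the median signal, at 3.075 (1.712 to 5.525, exact test, adjusted p = 0.00351). The octamer share was 12% in the 225 peaks 5 to 10 kb from a start, 5.74% in the 122 at 10 to 20 kb and 4.88% in the 41 beyond. The difference between the 225 and the 163 was 6.48 points (0.972 to 11.99) and did not pass over the octamer and any POU word (exact test, p = 0.0335, adjusted p = 0.0669). For any POU word the shares were 18.2% and 14.1%, a difference of 4.11 points (-3.24 to 11.46) that did not pass (exact test, adjusted p = 0.3325). This split was chosen after the values were seen.

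By median signal, peaks with the octamer leaned further to replicate 1 than those without it, in far intergenic sequence as in the like classes. Of the 36, the list of replicate 1 held 33 and the other list 17, beside 290 and 234 of the 352 without it. All 33 that could be paired between the ranked lists had the higher signal in replicate 1, as did 271 of 313 without the octamer, and the median log2 of replicate 1 over replicate 2 was 0.76 and 0.65. With and without the octamer this median was 0.86 and 0.52 in near intergenic peaks, and 0.96 and 0.56 in deep intronic ones, where 86 of 89 octamer peaks were higher in replicate 1. The list of replicate 1 held 82.4% of near intergenic peaks with and 82.8% without the octamer, and 81.4% and 81.5% of deep intronic ones. That of replicate 2 held 67.0% and 71.95% of near intergenic peaks, and 52.6% and 68.3% of deep intronic ones. None of these gaps was tested. In both lists were 15 of the 36 octamer peaks. The share with the octamer was thus 6.64% of the 226 in both lists and 12.96% of the 162 others, a difference of -6.33 points (-12.4 to -0.219) that did not pass over the 6 comparisons made (exact test, p = 0.0497, adjusted p = 0.135). In deep intronic peaks the same shares were 7.55% and 10.9%, and in near intergenic peaks 10.3% and 11.2%. Signal did not separate octamer peaks: 17 of the 187 above the list median held it and 19 of the 201 others, and their median rank was 4233, beside 4290.5 without it.

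**Figure D4:**
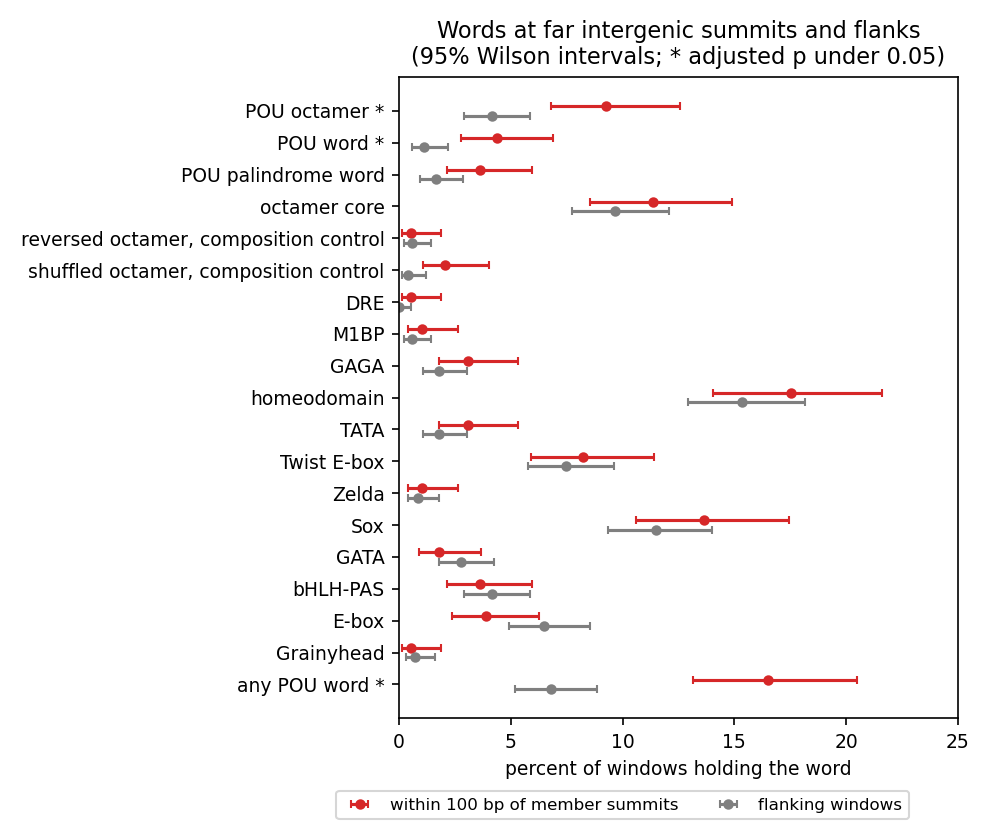
Percent of windows holding each fixed word within 100 bp of the 388 far intergenic summits (red) and in 723 flanking windows (grey), with 95% Wilson intervals as bars. Stars mark words with an adjusted p under 0.05, which are the octamer, the POU word ATGCTAAT and the 3 POU words as a set.

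Of the 18 fixed words, the octamer and ATGCTAAT passed as more frequent and 0 as less frequent. Over all conservative summits against their flanks, 55.6% of the 18 passed as more and 16.7% as less frequent, with many more windows. The octamer core TGCAAAT, which every octamer holds, was at 44 summits and had an odds ratio of 1.19 (0.801 to 1.78; adjusted p = 0.607 in the exact test). TAATTA, a homeodomain word, was at 68 summits (17.5%) and in 15.4% of flanks (1.17, 0.842 to 1.63; exact test, adjusted p = 0.601), and 6 summits held both it and the octamer. Of the promoter words, TATCGATA and GGTCACAC were rarer than over all peaks. The TATA word TATAAAAG was more frequent, at 3.09% of the 388 beside 1.94% of all peaks. These gaps were not tested. The rule keeps far intergenic summits away from transcript starts. Part of the gaps to all peaks can thus be set by the rule, and how much was not tested. TATCGATA, the DNA replication-related element, was at 2 of 388 (0.515%), beside 3.803% of all, 0.8197% of near intergenic and 0.3714% of deep intronic peaks. GGTCACAC, bound by M1BP, was at 4 (1.03%), beside 3.021%, 0.5855% and 0.2786%, and was thus not rarer than in the like classes. Neither TATCGATA nor GGTCACAC passed against flanks, and TATAAAAG did not pass either. The composition controls were TAAACGTA, with an odds ratio of 0.931, and AACATGTA, with 8 summits and 3 flanking windows and an odds ratio of 5.05 (1.33 to 19.2; exact test, p = 0.0203, adjusted p = 0.0966). The ratio of this control was above that of the octamer, on few windows and with a wide interval. With flanks 2000 bp away the control passed at 14.9 (1.86 to 119.6; exact test, adjusted p = 0.00689), where the octamer had 2.49. In 173 of the 388 windows none of the 18 words was found. The shares of all peaks with none of the words, or with both TAATTA and the octamer, were not computed.

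Against the like classes no word passed. The octamer share was -1.38 points (-4.93 to 2.18; exact test, adjusted p = 0.644) from that of near intergenic peaks (10.7%) and 0.272 points (-3.08 to 3.63; exact test, adjusted p = 0.918) from that of deep intronic peaks (9.01%). Over the 36 pairs of a word and a class, the lowest raw p was 0.0335, for the TATA word TATAAAAG at 3.09% of far and 1.17% of near intergenic summits (exact test, adjusted p = 0.669). GAGAGAG was at 3.09% of far, 5.27% of near intergenic and 5.66% of deep intronic summits (exact tests, adjusted p = 0.771 and 0.669). The intervals of the octamer share still hold differences of several points in either direction.

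**Figure D5:**
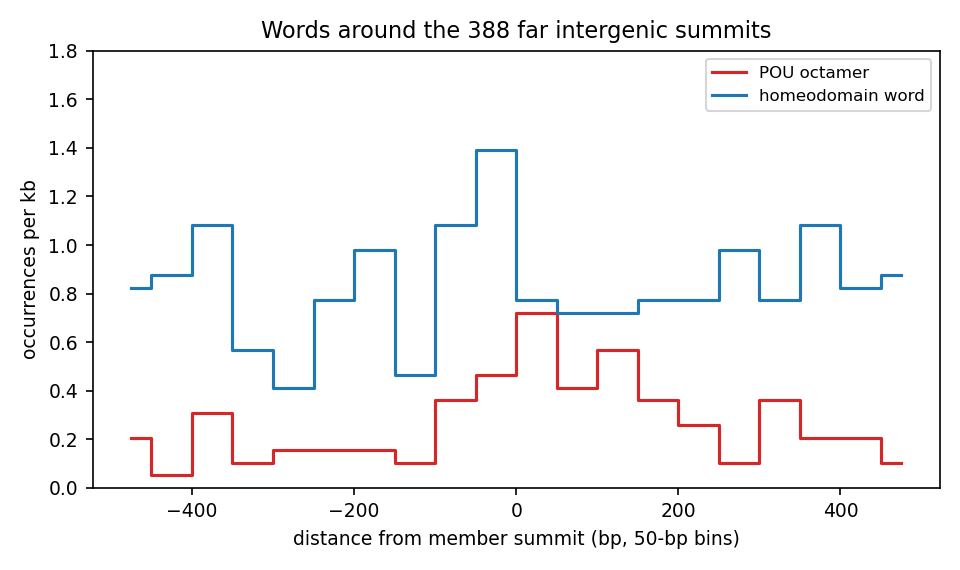
Occurrences per kb of the octamer (red) and of the homeodomain word (blue) in 50-bp bins around the 388 far intergenic summits, with distance from the summit in bp on the horizontal axis. The octamer is highest, at 0.722 per kb, in the 50 bp after the summit and is lowest, at 0.0515 per kb or 1 occurrence, 400 to 450 bp before it; the homeodomain word is highest, at 1.39 per kb, in the 50 bp before it.

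Among all 2080 strand-merged words of 6 bases, 21 (1.01%) were more frequent at far intergenic summits than in flanks and 6 (0.288%) less frequent. These 27 passing words became 14 with replicate 1 alone, 7 among peaks above the median signal, 6 within 50 bp of the summit and 1 beyond 10000 bp, but 67 with flanks at 2000 bp and 77 with protein-coding genes only. ACACTG led, at 66 summits (17.0%) and 4.56% of flanks (odds ratio 4.29, 2.77 to 6.64; exact test, adjusted p = 3.52e-08). Of the 21, 4 held CACTG or its reverse complement, among them ACAGTG with an odds ratio of 2.81 and CACTGA with 2.64. Of the 66 summits with ACACTG, 3 also held a POU word and 1 the M1BP word GGTCACAC. The second group held ATGC or its reverse complement: TATGCA (26.8% and 13%, odds ratio 2.45; exact test, adjusted p = 2.71e-05), GCATAA (26.3% and 12.9%, 2.42; exact test, adjusted p = 3.89e-05) and 3 others, with ratios of 2.59 for GCATAC, 2.43 for ATGCAC and 1.77 for ATGCAA. In windows with none of the 3 POU words, TATGCA was still at 18.2% of 324 summits and 9.20% of 674 flanks, and GCATAA at 21.6% and 11.7%. The lowest ratio was that of ATCCTC, at 1.55% of summits and 6.09% of flanks (0.242; exact test, adjusted p = 0.0330), followed by CCAGGA with 0.277 and by CGATCC, also with 0.277. ACACTG was at 16.4% of near intergenic summits (odds ratio 2.77) and at 15.04% of deep intronic ones (2.90). Of the 21 words, 10 (47.6%) were also among the 70 of near intergenic peaks (14.3%), and 14 (66.7%) among the 88 of deep intronic peaks (15.9%), which have more windows.

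Developmental genes were common as the nearest coding gene of far intergenic peaks. The share of far intergenic sequence that has such genes nearest was not computed. The list shares below are thus set beside those of other peaks only, most of which lie nearer to starts. The 388 had 217 distinct nearest coding genes at a median distance of 10.86 kb, and 79 were more than 20 kb from any coding start. In 136 cases the nearest start of any kind was that of a noncoding RNA. The summit was upstream of the nearest coding start in 200 cases (51.5%) and downstream, past the gene, in 188. vvl was nearest for 25, followed by CG43245 with 11, CG7560 with 7 and CG13898 with 6. The homeobox head gene ems and the zinc finger gene noc had 5 each. Wnt4, scyl, an inhibitor of growth through the TOR pathway, Tollo, a Toll-family receptor, and CG31797 had 4 each. These 4 were named among 11 genes tied at 4 peaks, in the order of their highest-ranked peak; the tied genes also held mirr, kni, hry, Ids, CG6163, CG6244 and CG6414.

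Homeobox transcription factors, which pattern the axes and specify cell types, were the list with most far intergenic peaks, through vvl alone. They were nearest to 53 of the 388 (13.7%), beside 2.36% of all peaks, 4.10% of near intergenic and 3.99% of deep intronic ones. vvl gave 25 of the 53. Leaving out the 60 kb around vvl, the list had 28 of 359 (7.80%) beside 2.00% of 8265 peaks, fewer than the 37 (10.3%) of other developmental transcription factors. The 5 peaks at ems ran in signal from 132.8 to 285.2 and all 5 were in both replicate lists. So were all 3 at oc, the orthodenticle gene that patterns the head. The 4 at mirr, an Iroquois gene, held 1 octamer and 1 was in both lists. Single peaks were nearest to en, a segment polarity gene (136.6), Dr, a muscle segment homeobox factor (207.8), and zfh2 on chromosome 4 (255.3). In all, 15 of the 94 listed genes found in the annotation had a far intergenic peak.

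Other developmental transcription factors were nearest to 37 of the 388 (9.54%), beside 3.94% of all peaks and 7.06% of deep intronic ones, and came from 22 genes. The highest signals were 434.0 at Doc2 (247.9 and 206.3 in replicates 1 and 2), a T-box factor of the dorsal ectoderm, and 362.2 and 315.0 at SoxN, a neural Sox factor. The 4 peaks at kni, a gap gene encoding a nuclear receptor-like factor, had signals from 55.09 to 139.4, and 1 was in both lists. The 3 nearest to trh, the bHLH-PAS factor known for starting tracheal fate, had 106.2 to 247.4, and 2 of the 3 held the octamer. The 3 at salr lay 38.0 to 39.3 kb from its start, and salm, its neighbour, had 2. None of the 5 at salr and salm held the octamer.

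Secreted signals and their receptors were nearest to 14 (3.61%, beside 1.70% of all peaks and 3.81% of deep intronic ones). Wnt4 had 4, of which 3 held the octamer, and wg had 2. The FGF ligand genes ths and pyr had 3 and 1, with signals from 117.1 to 146.8, and their receptor htl had 1 at 113.8. ptc, the Hedgehog receptor, had 2, of which the higher, 397.4, lay 5288 bp from its start and had 234.2 and 165.6 in the replicates. Axon guidance and adhesion genes were nearest to 9 (2.32%, beside 1.67% of all peaks and 4.09% of deep intronic ones), 4 of them at Tollo and 2 at 18w, where the higher had 523.2 (294.5 and 232.0).

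The remaining lists held 0 or 1 far intergenic peak each. Ribosomal protein genes were nearest to 0 of 388, where they were nearest to 71 of all peaks (0.855%) and to 0 of the deep intronic ones. Neuropeptide and neurotransmitter receptor genes were nearest to 0, where they were nearest to 22 (0.265%). Chemosensory and cuticle genes were nearest to 1, at Obp56g (116.9), beside 0.843% of all peaks, 3.86% of near intergenic and 0.836% of deep intronic ones. No test was made of any of these lists.

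The rule's limit of 5000 bp fell among peaks of varied signal. Just inside it were peaks 5009, 5034 and 5040 bp from a start, with signals of 398.3, 138.6 and 101.6, the second with the octamer. Just outside were peaks at 4995, 4975 and 4973 bp, with 76.01, 122.2 and 126.5, none with the octamer.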

How the data were processed

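Both ChIP-seq samples, biological replicates 1 and 2 from separate biosamples per the labels, form 1 group. The deposited thresholded lists give every peak a signal and a summit, per the file headers and values; the scale of this signal is not given, and it was used only to describe and rank peaks. A deposited ranked list gives the −log10 of the irreproducible discovery rate, which is at or over 2 in every peak of the conservative list. The authors' builds are dm6, and the names of the aligner and the peak caller were not given in the sources used here. Peak lists carry no read counts, so depth is unknown. Start codons of Ensembl release 115 read ATG in the Release 6 sequence in 99.8% of 30593 cases. A word counted as present when either strand held it in the 100 bp around a summit, and the same was done in peak-free windows 1000 bp to each side, with Fisher's exact test, 2-sided, and Benjamini-Hochberg adjustment over 19 word tests, 36 word and class pairs, 9 class comparisons or 2080 6-mers (a 6-mer passed at an adjusted p under 0.05 and a 1.5-fold odds ratio in either direction). The 95% intervals are Wilson for shares, normal approximation for odds ratios and differences, exact Poisson for densities. They cover counting error over peaks only. For signals per replicate, the closest summit of the replicate's own ranked list was taken if it was at most 100 bp away. A further 8 columns of the ranked list of the series were not used. The 6-mer scan was tested on simulated data. Named were vvl, genes nearest to the 15 highest-signal members, the 10 coding genes nearest to most members, up to 3 top members per gene list, and genes flanking the 5 fullest intervals; other genes of the lists were named after their values were seen. Members, words and lists were chosen with earlier results of these data known. Alternatives were the broader list, single replicates, 10000 bp, protein-coding genes only, no peaks near vvl, peaks above the median signal, other windows, flanks and distances. Python 3.11.15, scipy 1.17.1, statsmodels 0.14.6, pandas 2.3.3, numpy 2.4.6 and matplotlib 3.10.9 were used.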

Additional observations from a re-analysis of the deposited data

How the results depend on the processing

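Of 105 alternative values, 64 kept their direction and their side of the threshold or stayed close in value. The cause of each change was not tested. With 1 replicate alone the octamer's odds ratio ran from 1.13 to 4.05, that of any POU word from 1.41 to 3.94, the passing words from 0 to 5, the passing 6-mers from 14 to 26 and density from 15.2 to 24.6 per Mb. The octamer share differed from near intergenic peaks by -2.53 to 1.19 points and from deep intronic ones by -0.917 to 1.65, and the share of summits with a near neighbour from near intergenic peaks by -14.5 to -1.32. More than 10000 bp from a start, the octamer's ratio was 1.00, that of any POU word 2.25, 1 word and 1 6-mer passed and density was 12.8; octamer share against deep intronic peaks was -4.93, signal against near intergenic 0.0176 and replicate support against deep intronic -0.675. Among peaks above the median signal the octamer's ratio was 2.37 (exact test, adjusted p = 0.131), and 0 single words and 7 6-mers passed. The 3 POU words as a set still passed among these peaks, at 3.075 (exact test, adjusted p = 0.00351). Their density was 9.40, and against deep intronic peaks octamer share was -0.211, replicate support -1.42 and near neighbours 3.78. In the broader list octamer share against near intergenic peaks was 0.394, signal against near intergenic -7.60 and all other peaks -6.51 (both passing), against deep intronic -0.684, and density 30.5. With protein-coding genes only, 77 6-mers passed, density was 27.4, octamer share against deep intronic peaks -0.532 and replicate support against near intergenic 1.66. Within 50 bp of the summit 6 6-mers passed and octamer share against deep intronic peaks was -0.365. With flanks at 2000 bp, 5 words and 67 6-mers passed. Without peaks near vvl, near neighbours differed by -9.89 and -8.91 points, both passing. With all 388 peaks and neighbours counted within 10 kb, the difference from deep intronic peaks was -6.31, which passed. With 2 replicates and no read counts, differences of a few points could not be resolved.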
